A study of Mus musculus with 4 samples.

Results

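Glutamate reaches oligodendrocyte precursors through receptors that neurons also use, and 10 such genes were followed here, out of 35869 rows of the expression table: the AMPA receptor subunits Gria1, Gria2, Gria3 and Gria4, the AMPA receptor auxiliary subunit Cacng4, the kainate receptor subunits Grik2, Grik3, Grik4 and Grik5, and the metabotropic receptor Grm5. They were chosen by gene symbol as the glutamate receptor genes of precursors, and all 10 were found. RNA had been sequenced from oligodendrocytes of the mouse cerebral cortex at postnatal day 5, sorted by fluorescence on O4 and GalC together, surface lipids carried by late precursors and by oligodendrocytes that have begun to differentiate. There were 2 libraries from mice carrying a Zfp488 knock-in allele on both chromosomes (Zfp488KI/KI, labelled Zfp488 KO and called KO here) and 2 from control mice (labelled WT). Zfp488 encodes a zinc finger protein of the oligodendrocyte lineage, and the study asks how its disruption bears on the timing of myelination. The design of the allele, the strain, the sex and the number of animals per library were not given in the sources used here. All p-values therefore reflect the spread among 4 libraries, which could be technical.

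AMPA receptors are tetramers of GluA subunits that open a cation channel within milliseconds of glutamate binding, and transmembrane AMPA receptor regulatory proteins (TARPs), among them the product of Cacng4, carry them to the surface and slow their closing. Kainate receptors are related tetramers of GluK subunits, and mGluR5, the product of Grm5, couples to Gq proteins and calcium release. Oligodendrocyte precursors receive synapses from axons through AMPA receptors and lose these inputs as they differentiate. AMPA receptor transcripts are commonly higher in precursors than in myelinating cells.

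The ionotropic subunits share a pore loop, the stretch of protein that lines the channel, and are set apart there by RNA editing. In Gria2 transcripts the enzyme ADAR2 edits a glutamine codon of the loop (the Q/R site) into one read as arginine, and receptors that hold edited GluA2 pass little calcium. The share of Gria2 among the AMPA receptor transcripts was for this reason examined below. The sequences show this codon in capitals within 63 bases of spliced coding sequence of each ionotropic member, unedited, from the GENCODE M21 transcripts of GRCm38 (mm10).
Gria1: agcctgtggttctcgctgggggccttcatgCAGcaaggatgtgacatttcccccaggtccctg
Gria2: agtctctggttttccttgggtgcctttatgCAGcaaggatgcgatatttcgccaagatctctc
Gria3: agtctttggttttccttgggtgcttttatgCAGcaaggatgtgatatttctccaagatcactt
Gria4: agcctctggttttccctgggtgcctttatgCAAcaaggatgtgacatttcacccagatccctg
Grik2: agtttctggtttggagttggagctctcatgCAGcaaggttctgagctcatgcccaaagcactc
Grik3: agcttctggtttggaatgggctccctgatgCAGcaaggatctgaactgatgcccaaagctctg
Grik4: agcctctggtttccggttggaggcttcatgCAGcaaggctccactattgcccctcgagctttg
Grik5: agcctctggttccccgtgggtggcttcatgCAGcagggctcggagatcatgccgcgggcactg

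The codon lies at chr3:80706911-80706913 in Gria2 and at chr9:4464137-4464139 in Gria4, both on the minus strand. Gria4 alone of the 8 carries CAA in place of CAG. Of the 63 bases, 57 are shared by Gria3 with Gria2, 54 by Gria4 and 49 by Gria1, against 41 to 44 by the kainate subunits. Over the whole coding sequences the longest exact stretch shared by any pair of the 10 genes was 41 bases, between Gria2 and Gria4. The read length was not given in the sources used here, so reads assigned to the wrong subunit within such stretches cannot be counted. FPKM do not show editing.

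Expression was given as FPKM, fragments scaled to transcript length and to the mapped fragments of the library. Levels can be set beside each other between genes only as far as these estimates hold. Of the 10 precursor markers used below, 2 were under 1 FPKM in every library, and whether such levels are failed estimates was not tested. FPKM summed to between 311846 and 341145 per library. Low values stepped at about 37.3 to 44.0 reads for each FPKM on 1 kb of transcript. By that approximate step and the longest annotated transcript, the members other than Cacng4 rested on about 51.5 reads (Gria1 in WT 2) to about 1278 reads (Gria2 in KO 1) per library, and Cacng4 on about 28326 to 43988. The Zfp488 row stood at 4.82 and 4.11 FPKM in KO 1 and KO 2, and at 6.61 and 5.29 FPKM in WT 1 and WT 2, a log2 difference of -0.34 (SE 0.33) that did not pass (limma, adjusted p = 0.95). With the allele's design unknown this checks the labels only weakly.

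Cacng4 was by far the most abundant of the 10 genes, and 6 of them were higher in both KO libraries than in both WT libraries, although no single difference passed the test. Those 6 were Gria1, Gria2, Gria4, Cacng4, Grik5 and Grm5. Grik3 was lower in both KO libraries, and Gria3, Grik2 and Grik4 overlapped. Among all 10754 rows tested, 16.6% had both KO libraries above both WT libraries and 18.3% had both below; that background holds tested rows only, whereas Gria1 was not tested. The count of 6 was 5 with median-of-ratios scaling of the libraries, where Cacng4 overlapped, and 7 after rescaling to TPM. It was 3 after quantile normalization and 3 with the trend of fold changes with transcript length removed. It was 2 with the libraries scaled to precursor markers (Gria1 and Grm5), a scaling chosen after seeing the data. The shares of 16.6% and 18.3% are for FPKM as reported and were not counted under these other choices. Some of these moved all rows, with a median log2 fold change of 0.081 after rescaling to TPM and -0.26 with the precursor markers. The members were chosen with earlier results of these data known, so their count beside that background is a description and not a test.

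Differences were tested with limma on log2(FPKM + 1), over rows with at least 1 FPKM in at least 2 libraries. By adjusted p under 0.05, 0% of rows passed (0 of 10754, smallest adjusted p = 0.859), while 608, or 5.65%, had an unadjusted p under 0.05. Of the 10 genes, 8 were tested, and 0 of them passed by adjusted or by unadjusted p. Gria1 and Grik2 fell short of the filter, and Grm5 met it through its KO libraries alone, so that its difference is in part a condition of its being tested. Over all 10 genes the median log2 fold change was 0.22, against 8.11e-05 over all rows tested. It was 0.090 without KO 1, 0.38 without KO 2, 0.12 with the length trend removed and -0.047 with the scaling to precursor markers.

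**Figure D1:**
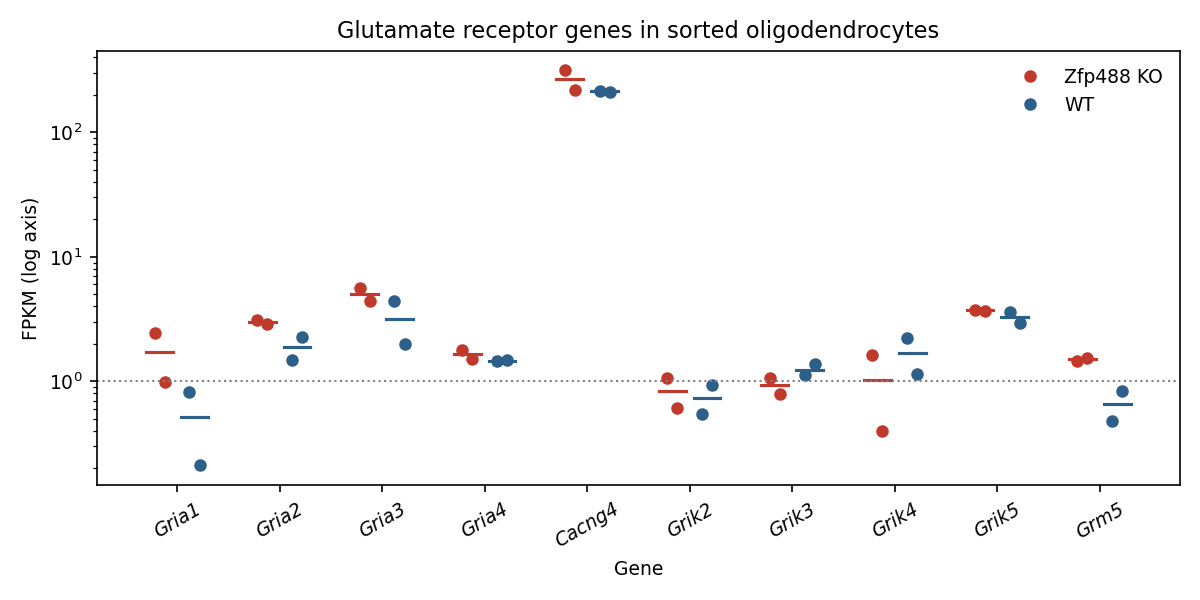
FPKM of each gene in every library on a log axis, with KO in red left of WT in blue; points are libraries, short lines are group means and the dotted line marks 1 FPKM. Cacng4 stands at 209 FPKM or more in every library, and the other 9 genes reach at most 5.67 FPKM.

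**Figure D2:**
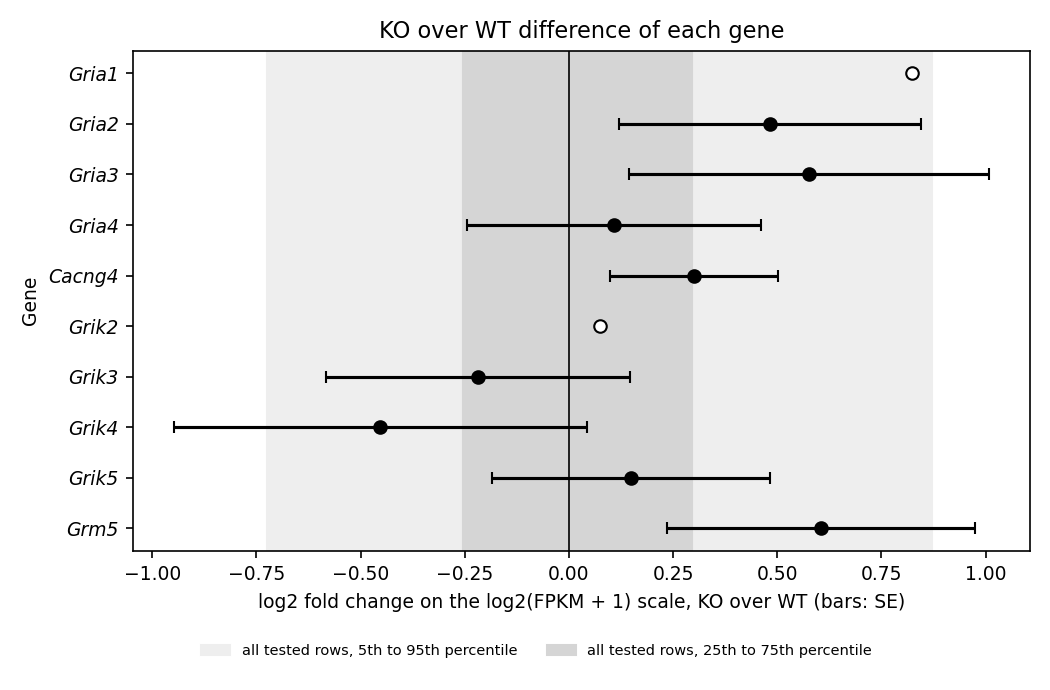
Difference of KO minus WT on the log2(FPKM + 1) scale for each gene, with SE bars from limma; open circles are genes below the filter, drawn without an error. Every point lies between the 5th and 95th percentile of all 10754 rows tested (-0.72 and 0.87).

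Among the AMPA receptor subunits, Gria1 and Gria2 were higher in both KO libraries. Gria1 (chromosome 11, 57011387 to 57330244, plus strand) encodes GluA1, a subunit that forms calcium-permeable channels without GluA2. It was at 2.46 and 0.989 FPKM in KO 1 and KO 2, and at 0.815 and 0.211 FPKM in WT 1 and WT 2. The groups did not overlap, but KO 2 lay much closer to WT 1 than to KO 1. Its log2 fold change was 0.82, and it was 0.42 without KO 1 and 0.53 without WT 2. When rows below the filter were tested too, its SE was 0.51 and it did not pass (limma, adjusted p = 0.865).

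Gria2 (chromosome 3, 80681450 to 80802835, minus strand) encodes the subunit that limits calcium entry. It was at 3.08 and 2.91 FPKM in KO 1 and KO 2, and at 1.495 and 2.28 FPKM in WT 1 and WT 2. The KO libraries were nearly alike, and the spread lay within WT. On the log2 scale KO exceeded WT by 0.48 (SE 0.36), which did not pass (limma, adjusted p = 0.936), and by 0.28 without WT 1.

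Gria3 (chromosome X, 41400854 to 41678601, plus strand), the GluA3 gene, was the most abundant AMPA receptor subunit in every library but WT 2. It was at 5.67 and 4.38 FPKM in KO 1 and KO 2, and at 4.40 and 1.99 FPKM in WT 1 and WT 2. WT 1 fell just within the KO range, and the mean difference rests largely on the low WT 2. Its log2 fold change was 0.58 (SE 0.43; limma, adjusted p = 0.935), and it was 0.15 without WT 2 and larger without WT 1.

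Gria4 (chromosome 9, 4417896 to 4796234, minus strand), which encodes GluA4, was close to level. It was at 1.80 and 1.52 FPKM in KO 1 and KO 2, and at 1.45 and 1.48 FPKM in WT 1 and WT 2. The groups did not overlap, yet KO 2 exceeded WT 2 by less than KO 1 exceeded KO 2. Its log2 fold change was 0.11 (SE 0.35; limma, adjusted p = 0.995), and it was 0.034 without KO 1, 0.18 without KO 2 and -0.0055 with the length trend removed. The annotation places small RNA models on exons of Gria2, Gria3, Gria4 and Grik4, whose reads cannot be told apart from those of the host gene.

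Summed over Gria1 to Gria4, AMPA receptor transcripts were at 13.01 and 9.81 FPKM in KO 1 and KO 2, and at 8.16 and 5.97 FPKM in WT 1 and WT 2. Gria2 made up 23.7% and 29.7% of that sum in KO 1 and KO 2, and 18.3% and 38.3% in WT 1 and WT 2. The KO shares lay inside the WT range, and the means were 26.7 ± 4.24% in KO and 28.3 ± 14.1% in WT (SD, n = 2 each). The sign of that difference turned when WT 2 was left out (8.39 percentage points) or KO 1 was (1.40). The share of Gria1 was 18.9% and 10.1% in KO 1 and KO 2, against 9.98% and 3.54% in WT 1 and WT 2. Gria4 took 13.8% and 15.5% in KO 1 and KO 2, against 17.8% and 24.8% in WT 1 and WT 2. The Gria1 shares were thus higher, and the Gria4 shares lower, in both KO libraries, with KO 2 and WT 1 nearly equal for Gria1. No test was made of these shares. Adarb1, which encodes ADAR2 and was named after its values were seen, was below the filter at 0.199 and 0.078 FPKM in KO 1 and KO 2, and at 0.043 and 0.067 FPKM in WT 1 and WT 2.

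**Figure D3:**
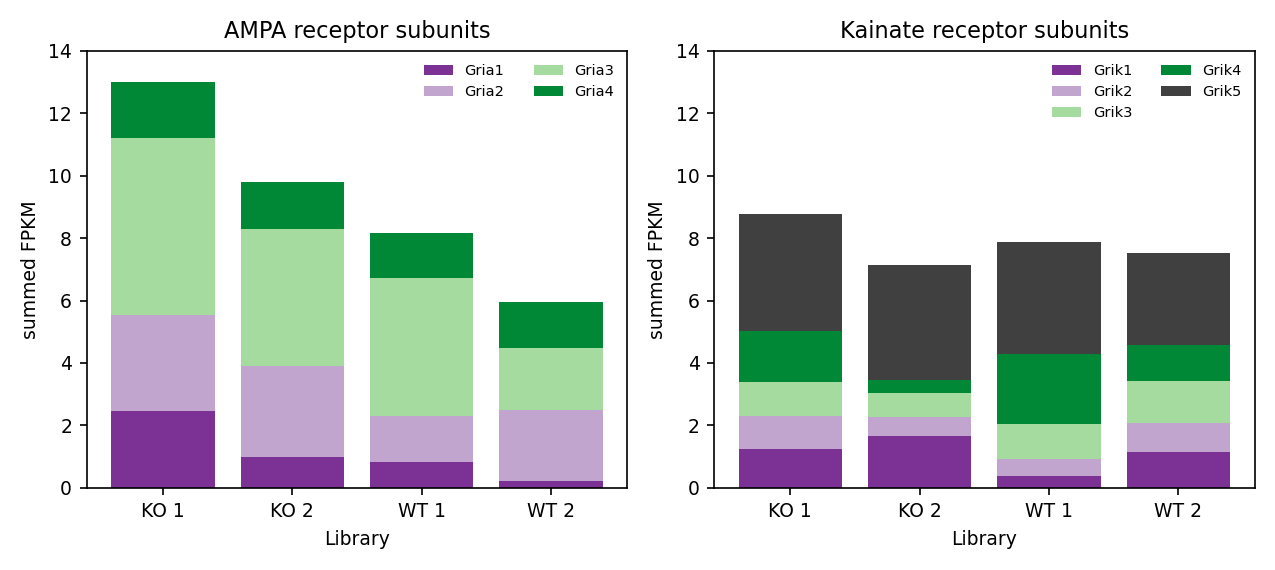
Summed FPKM of the AMPA receptor subunits (left) and of the kainate receptor subunits including Grik1 (right) in each library, stacked by gene. The AMPA receptor sum is 13.01 and 9.81 FPKM in the KO libraries and 8.16 and 5.97 FPKM in the WT libraries, whereas the kainate sums of KO and WT overlap.

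Cacng4 (chromosome 11, 107732357 to 107794557, minus strand) encodes TARP gamma-4, an auxiliary subunit of AMPA receptors that is abundant in the oligodendrocyte lineage. It was at 314 and 219 FPKM in KO 1 and KO 2, and at 217 and 209 FPKM in WT 1 and WT 2. KO 1 stood apart, and KO 2 lay only just above WT 1. The groups overlapped with median-of-ratios scaling and with the length trend removed. Its log2 fold change was 0.30 (SE 0.20; limma, adjusted p = 0.928), and it was 0.042 without KO 1 and 0.56 without KO 2 (SE 0.16; limma, unadjusted p = 0.0259, adjusted p = 0.9998). Fewer cells of a type and less RNA per cell cannot be told apart in such bulk libraries, for this gene as for all others.

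In each library Cacng4 exceeded at least 96.9% of the rows tested, whereas the other 9 genes exceeded between 2.87% (Grik4 in KO 2) and 47.9% (Gria3 in KO 1) of them. It supplied 99.2% and 99.2% of the summed FPKM of the 6 TARP genes in KO 1 and KO 2, and 99.2% and 99.4% in WT 1 and WT 2. Per unit of AMPA receptor subunit transcript, its level was 24.2 and 22.4 in KO 1 and KO 2, and 26.6 and 35.1 in WT 1 and WT 2. This ratio of FPKM was lower in both KO libraries, as the subunit sum differed more between genotypes than Cacng4 did, and it was not tested.

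The kainate receptor subunits did not share a direction. Grik5 (chromosome 7, 25009849 to 25072346, minus strand) encodes GluK5, a high-affinity subunit that needs a partner such as GluK2 to form a channel. It was the most abundant of them, at 3.76 and 3.68 FPKM in KO 1 and KO 2, and at 3.59 and 2.96 FPKM in WT 1 and WT 2. The groups stood next to each other without overlap, and the log2 fold change was 0.15 (SE 0.33; limma, adjusted p = 0.993). It was 0.042 without WT 2, 0.25 without WT 1 and 0.030 with the length trend removed. Grik4 (chromosome 9, 42518135 to 42944493, minus strand), which encodes the other high-affinity subunit, GluK4, was at 1.64 and 0.401 FPKM in KO 1 and KO 2, and at 2.25 and 1.14 FPKM in WT 1 and WT 2. Library 1 exceeded library 2 in either genotype, by 4.10 times in KO and 1.97 times in WT. A log2 fold change of -0.45 (SE 0.50; limma, adjusted p = 0.966) was smaller than its error, and it ranged from -0.91 without KO 1 to 0.0053 without KO 2.

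Grik3 (chromosome 4, 125490700 to 125714173, plus strand), which encodes GluK3, was lower in both KO libraries. It was at 1.072 and 0.785 FPKM in KO 1 and KO 2, and at 1.12 and 1.37 FPKM in WT 1 and WT 2. KO 1 and WT 1 differed little, and the log2 fold change was -0.22 (SE 0.37; limma, adjusted p = 0.984), or -0.11 without KO 2 and -0.14 without WT 2. Grik2 (chromosome 10, 49094833 to 49788766, minus strand), which encodes GluK2, a channel-forming partner of GluK4 and GluK5, was at 1.06 and 0.609 FPKM in KO 1 and KO 2, and at 0.545 and 0.934 FPKM in WT 1 and WT 2. The ranges of the groups overlapped in part in this gene, the least abundant of the kainate members on average, and the log2 fold change was 0.075, with a sign that several alternatives turned. Grik1, which encodes GluK1 and was added to complete the family, was at 1.25 and 1.65 FPKM in KO 1 and KO 2, and at 0.392 and 1.13 FPKM in WT 1 and WT 2. All 5 kainate subunits together came to 8.78 and 7.13 FPKM in KO 1 and KO 2, and to 7.88 and 7.53 FPKM in WT 1 and WT 2. Grik5 made up 42.8% and 51.7% of this in KO 1 and KO 2, and 45.5% and 39.3% in WT 1 and WT 2.

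Grm5 (chromosome 7, 87584168 to 88134907, plus strand), the metabotropic receptor gene, was nearly level between the KO libraries and lower in both WT libraries. It was at 1.45 and 1.55 FPKM in KO 1 and KO 2, and at 0.480 and 0.829 FPKM in WT 1 and WT 2. Both KO libraries lay above 1 FPKM and both WT libraries below it. The means were 1.503 ± 0.0728 FPKM in KO and 0.655 ± 0.247 FPKM in WT (SD, n = 2 each), a ratio of 2.30. On the log2(FPKM + 1) scale the fold change was 0.60 (SE 0.37), and it did not pass (limma, adjusted p = 0.918). With a pseudocount of 0.1 in place of 1 the log2 fold change was 1.13, since the larger pseudocount compresses levels near 1 FPKM.

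In order of level, Cacng4 came first in all 4 libraries, and Gria3 and Grik5 filled the next places in KO 1, KO 2 and WT 1. In WT 2, Grik5 and Gria2 stood next after Cacng4. The lower places changed from library to library, with Gria1 the fifth in KO 1 and the last in WT 2, and Grik4 the fourth in WT 1 and the last in KO 2. Below the first place the order of neighbouring genes was thus within the spread of the libraries.

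**Figure D4:**
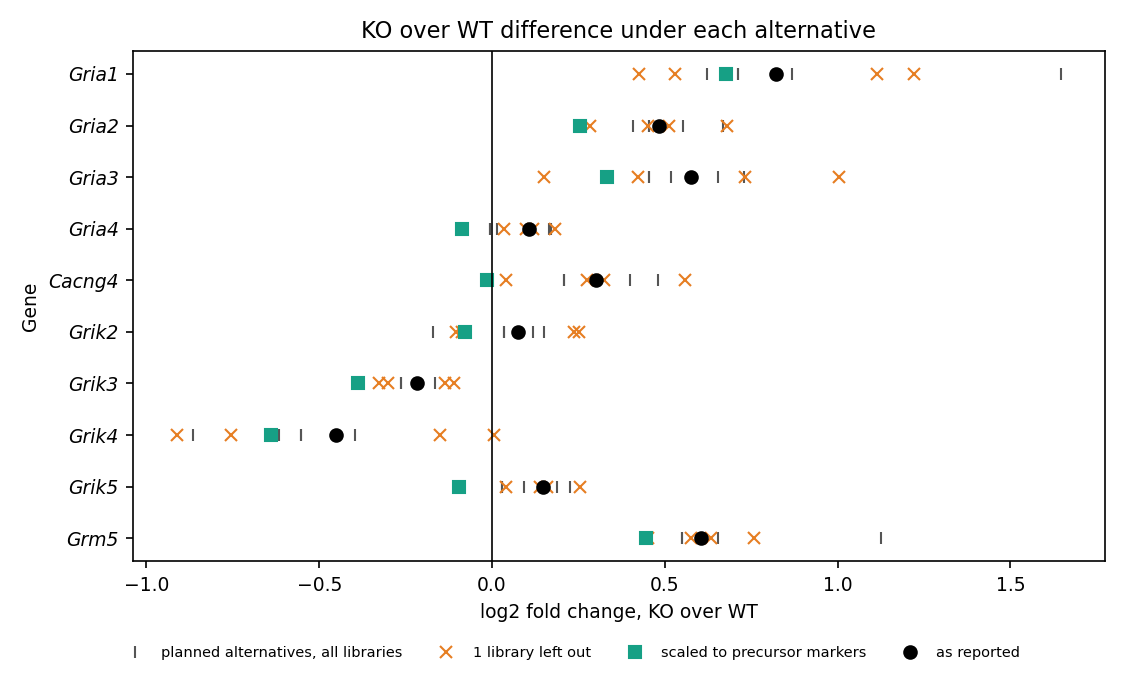
Difference of KO minus WT (log2) of each gene as reported (black), under other processing choices with all libraries (ticks), with 1 library left out (crosses) and with the libraries scaled to the sum of precursor markers (squares). Gria1, Gria2, Gria3 and Grm5 stay above 0 and Grik3 below 0 under all of these, and Gria4, Cacng4, Grik2 and Grik5 have black points above 0 and squares below it.

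Of the other glutamate receptor subunits, 17 genes on a list made for this comparison, 6 were tested. The KO values lay above the WT values for 4 of these and below for 0, beside 16.6% and 18.3% of all rows tested, and 0 passed by limma's adjusted or unadjusted p. One of the 4, Grin1, met the filter through its KO libraries alone, so its count is in part a condition of its being tested. The most abundant tested genes of each list are named. Grin3a, which encodes an NMDA receptor subunit that lowers calcium flow, was at 3.59 and 4.69 FPKM in KO 1 and KO 2, and at 2.05 and 2.64 FPKM in WT 1 and WT 2 (log2 fold change 0.62, SE 0.35). Grm3, a Gi-coupled metabotropic receptor, was at 3.35 and 4.98 FPKM in KO 1 and KO 2, and at 0.015 and 3.11 FPKM in WT 1 and WT 2 (1.32, SE 0.74). WT 1 was near 0 while WT 2 was close to KO 1, and whether such a value is a failed estimate was not tested.

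Other auxiliary subunits of AMPA and kainate receptors were mixed: 5 of 14 genes were tested, with KO above WT without overlap for 1 and below for 0 (16.6% and 18.3% of all rows tested), and 0 past limma's adjusted or unadjusted threshold. Cnih2, a cornichon protein that slows AMPA receptor closing, was the second most abundant auxiliary gene after Cacng4, at 47.0 and 58.9 FPKM in KO 1 and KO 2, and at 52.2 and 68.3 FPKM in WT 1 and WT 2. Shisa8, of the family of AMPA receptor modulators that includes CKAMP44, averaged 8.65 ± 4.33 FPKM in KO and 8.70 ± 3.17 FPKM in WT (SD, n = 2 each). Neto2, an auxiliary subunit of kainate receptors, was at 3.51 and 4.18 FPKM in KO 1 and KO 2, and at 1.47 and 2.67 FPKM in WT 1 and WT 2, without overlap (log2 fold change 0.68, SE 0.39; limma, adjusted p = 0.914).

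Genes of receptor scaffolds, trafficking and editing overlapped for 10 of 12 tested (of 24 listed). Both KO libraries were above WT for 1 gene and below it for 1, no more often than the 16.6% and 18.3% of all rows tested, with 0 past limma's adjusted or unadjusted threshold. Nsf, an ATPase that keeps GluA2 at the surface, was at 34.4 ± 13.7 FPKM in KO and 28.6 ± 4.45 FPKM in WT. Nptx2, a secreted pentraxin that clusters AMPA receptors, was at 34.2 ± 21.3 FPKM in KO and 23.3 ± 5.57 FPKM in WT. Frrs1l, which takes part in AMPA receptor assembly, was at 11.8 ± 3.60 FPKM in KO and 12.1 ± 2.52 FPKM in WT (SD, n = 2 each). In each case KO 1 exceeded KO 2 and both WT values lay between them.

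For glutamate uptake, release and turnover, 6 of 10 genes were tested, with KO above WT without overlap for 0 and below for 1. That stood beside 16.6% and 18.3% of all rows tested, and 0 of the 6 passed limma's adjusted or unadjusted threshold. The neuronal-type transporter gene Slc1a1 was at 151 and 96.1 FPKM in KO 1 and KO 2, and at 168 and 87.0 FPKM in WT 1 and WT 2. The glial transporter gene Slc1a3 was at 92.4 and 187 FPKM in KO 1 and KO 2, and at 71.9 and 102 FPKM in WT 1 and WT 2. Both transporter genes differed more between the KO libraries than between the genotype means. Glud1, which encodes glutamate dehydrogenase, overlapped as well (65.4 ± 5.88 FPKM in KO and 59.6 ± 2.81 FPKM in WT, SD, n = 2 each). Among the Gq signalling genes downstream of mGluR5, 8 of 12 were tested, with 1 higher and 1 lower in both KO libraries (16.6% and 18.3% of all rows tested). Of the 8, 0 passed limma's adjusted or unadjusted threshold. Gnaq, which encodes the G protein subunit itself, was the higher one, at 15.1 and 12.98 FPKM in KO 1 and KO 2, and at 9.66 and 9.69 FPKM in WT 1 and WT 2 (log2 fold change 0.49, SE 0.27; limma, adjusted p = 0.914). Its relative Gna11 (70.0 ± 12.1 FPKM in KO, 67.8 ± 6.14 FPKM in WT) and the kinase gene Prkcb (20.6 ± 3.81 FPKM in KO, 23.2 ± 2.72 FPKM in WT) overlapped.

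Part of the precursor markers were also higher in both KO libraries. The 10 precursor markers summed to 364 and 291 FPKM in KO 1 and KO 2, and to 281 and 243 FPKM in WT 1 and WT 2. KO lay above WT without overlap for 4 of the 8 tested and below for 0, beside 16.6% and 18.3% of all rows tested; 0 passed limma's adjusted threshold and 2 (Pdgfra and Lhfpl3) had an unadjusted p under 0.05. The other 4 tested overlapped, with log2 fold changes of 0.27 for Matn4, -0.018 for Vcan, -0.24 for Tnr and -0.34 for Neu4. Pdgfra, which encodes the receptor of the precursor mitogen PDGF-AA, was among the 4, at 40.2 and 42.5 FPKM in KO 1 and KO 2, and at 18.5 and 26.8 FPKM in WT 1 and WT 2. Set against that sum, Cacng4 came to 86.3% and 75.5% in KO 1 and KO 2, and to 77.2% and 86.2% in WT 1 and WT 2, so the gap between genotypes closed. The AMPA receptor subunit sum came to 3.57% and 3.37% in KO 1 and KO 2, and to 2.91% and 2.45% in WT 1 and WT 2, and the groups stayed apart. With the libraries scaled in this way, which was chosen after seeing the data, Gria1 and Grm5 were the 2 genes higher in both KO libraries, and the log2 fold change of Cacng4 was -0.015 (SE 0.23). The scaling put the median of all rows tested at -0.26. On the log2(FPKM + 1) scale this scaling moves rows of low level less than abundant ones. Cacng4 went from 0.30 to -0.015, but Gria1 from 0.82 to 0.68 and Grm5 from 0.60 to 0.44. The scaled values of low genes are thus not directly comparable with that of Cacng4. Setting Cacng4 against that median would largely undo the scaling. The 10 myelin markers had a sum of 501 and 234 FPKM in KO 1 and KO 2, and of 771 and 484 FPKM in WT 1 and WT 2. KO lay below WT without overlap for 6 of the 9 tested and above for 0, beside 18.3% and 16.6% of all rows tested. One of the 6, Opalin, met the filter through its WT libraries alone (0 FPKM in both KO libraries). Of the 9 tested, 0 passed limma's adjusted threshold and 2 (Mobp and Opalin) had an unadjusted p under 0.05. Mbp, a main protein of compact myelin, was also among the 6. It was at 65.0 and 29.6 FPKM in KO 1 and KO 2, and at 103 and 74.1 FPKM in WT 1 and WT 2. How far the balance of precursor to myelinating cells takes part in the receptor differences was not tested. Mal was listed at 0 in every library, which can be a failed estimate.

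Markers of other cell types were present too. The 13 neuron markers summed to 36.7 and 62.3 FPKM in KO 1 and KO 2, and to 26.4 and 48.7 FPKM in WT 1 and WT 2. Of the 5 tested, KO lay above WT without overlap for 2 and below for 0, beside 16.6% and 18.3% of all rows tested. Stmn2 was at 3.67 and 6.57 FPKM in KO 1 and KO 2, and at 1.35 and 0.503 FPKM in WT 1 and WT 2, a log2 fold change of 1.66 (SE 0.45; limma, unadjusted p = 0.0147, adjusted p = 0.859). Snap25 was at 6.84 and 6.82 FPKM in KO 1 and KO 2, and at 3.46 and 5.06 FPKM in WT 1 and WT 2. The excitatory neuron markers Slc17a7, Slc17a6 and Camk2a were at most 0.031 FPKM in every library. Neurod6, another gene of such neurons, was at 3.06 FPKM in KO 1 and was listed at 0 in the other 3 libraries. KO 1 held the highest value of Gria1, Gria2, Gria3, Gria4, Grik2, Grik5 and Cacng4, but not of Grik3, Grik4 or Grm5. Its neuron marker sum was below those of KO 2 and WT 2. Tubb3 was at 9.55 and 24.6 FPKM in KO 1 and KO 2, and at 10.4 and 24.2 FPKM in WT 1 and WT 2. Microglia markers summed to 24.3 and 73.0 FPKM in KO 1 and KO 2, and to 19.7 and 69.9 FPKM in WT 1 and WT 2, and endothelial and mural markers to 1.04 and 42.9 FPKM in KO 1 and KO 2, and to 0.454 and 43.7 FPKM in WT 1 and WT 2. Astrocyte markers came to 169 and 145 FPKM in KO 1 and KO 2, and to 248 and 177 FPKM in WT 1 and WT 2, most of it from S100b, which oligodendrocytes also express. Most other astrocyte markers were higher in library 2 of either genotype, such as Gja1 at 3.35 and 25.9 FPKM in KO 1 and KO 2, and at 1.10 and 37.9 FPKM in WT 1 and WT 2. Gfap, likewise, was at 0.459 and 7.58 FPKM in KO 1 and KO 2, and at 1.01 and 3.32 FPKM in WT 1 and WT 2. The vascular and microglial signal, and that of Gja1 and Gfap, thus went with the library number and not with genotype. Precursor, premyelinating and myelin marker sums were in turn higher in library 1 of either genotype. The premyelinating sum was 379 and 177 FPKM in KO 1 and KO 2. In WT 1 and WT 2 it was 468 and 249 FPKM. Among the receptor genes, Gria1, Gria3, Grik4, Grik5 and Cacng4 were higher in library 1 of either genotype, and Grm5 in library 2. Some of these gaps were small, at 1.02 times for Grik5 in KO and 1.04 times for Cacng4 in WT. The other 4 genes differed in this between genotypes, and the share of all rows with such a pattern was not counted. The part of neurons or other cells in the receptor differences was not tested.

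**Figure D5:**
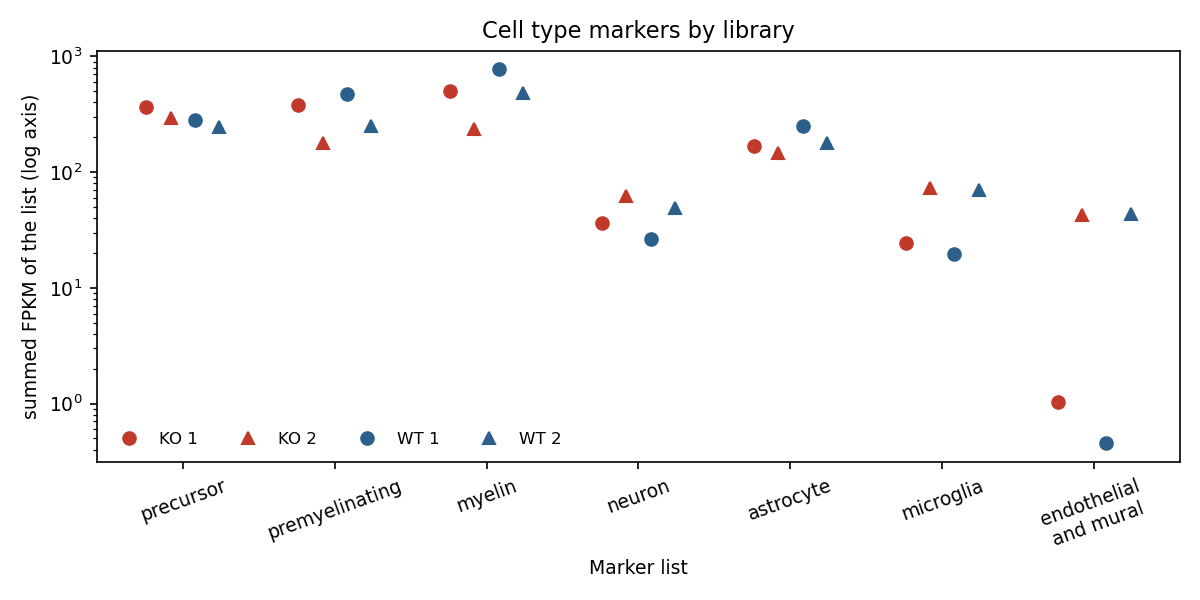
Summed FPKM of each marker list in each library on a log axis; circles are library 1 and triangles library 2, with KO in red left of WT in blue. Precursor sums are higher in both KO libraries and myelin sums overlap between the genotypes, while the endothelial and mural sum is 42.9 and 43.7 FPKM in the libraries numbered 2 and at most 1.04 FPKM in those numbered 1.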

How the data were processed

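RNA extraction used the RNeasy Micro Kit, and libraries were built with an Illumina RNA-seq preparation kit, per the labels' protocols. The authors deposited FPKM for 2 KO and 2 WT libraries in 35869 rows, and 12972 of these rows held 0 throughout. TopHat (version not stated) and mm10 are named in the submitters' processing notes. How FPKM were estimated, on which annotation, with which strand setting and after which filters was not given in the sources used here.

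Values were analysed as log2(FPKM + 1), which understates the change of low genes, for 10754 rows with at least 1 FPKM in at least 2 libraries. The test was limma 3.58.1 run in R 4.3.3 (genotype, mean-variance trend, Benjamini-Hochberg adjustment over all rows, threshold 0.05, two-sided). The fit had first been tested on simulated data. Of 100 rows changed by 2 log2 units, 93 were recovered, and of 100 changed by 4, 100 were, with 4 false calls. The members differed by at most 0.82, so the simulation does not show what the fit recovers at that size. Steps of whole reads were read from the tallest peak of FPKM times transcript length among low values of genes with a single annotated transcript. That this peak marks a single read was assumed, and between 18.0% and 21.7% of the low genes lay at it. The steps are approximate, and counts were not rebuilt. Coordinates, lengths and sequences are from GENCODE M21 (GRCm38).

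The members, gene lists, alternatives and tests were chosen with earlier results of these data known. All members were named, Zfp488 as a check of the labels, and from each other list of glutamate genes the 3 tested genes with the highest mean FPKM. A gene that this rule names is not reported here. Marker lists are given as sums and counts, with Pdgfra, Mbp and Tubb3 named by rule and other markers named after their values were seen. Other processing choices numbered 14, covering the pseudocount, filter, scaling, trend, replicate number, transcript length and each left-out library.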

Additional observations from a re-analysis of the deposited data

How the results depend on the processing

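No tested member passed limma's adjusted threshold under any of 14 other processing choices. Gria1, Gria2, Gria3, Grik3, Grik5, Grm5 and Cacng4 kept their direction under all 14. Not all of these could turn a direction. Changes of the filter, of the mean-variance trend or of the replicate block leave a fold change as it is. For genes whose groups did not overlap, another pseudocount or a left-out library could not turn it either. Gria4 was at -0.0055 with the length trend removed, with or without the replicate block. Grik2 was at -0.17 after quantile normalization and between -0.10 and 0.25 with 1 library left out. Grik4 lay between -0.91 and 0.0053 with 1 library left out. Scaling to precursor markers, added after seeing the data, gave -0.087 for Gria4, -0.078 for Grik2, -0.095 for Grik5, -0.015 for Cacng4 and -0.047 for the median of the 10 genes, with 2 genes higher and 2 lower in both KO libraries. Left-out libraries put that median between 0.090 and 0.38 and the KO minus WT share of Gria2 between -11.6 and 8.39 percentage points. The number of members higher in both KO libraries was 5 with median-of-ratios scaling, 7 after rescaling to TPM and 3 after quantile normalization. It was 3 with the length trend removed, with or without the replicate block. With 1 library left out it was between 6 and 8. Groups that do not overlap stay apart when a library is removed, so this count could only stay at 6 or rise. The number lower was 0 after rescaling to TPM and between 1 and 2 with 1 library left out, where it likewise could not fall. Rows with an unadjusted p under 0.05 numbered 1123 with no filter, 1025 with the replicate block, and between 322 and 618 with 1 library left out. With no filter 22897 rows were tested, against 10754 with the filter. The count of 1123 is thus out of more rows, and by itself does not show a larger share than the 608 of the main fit. Rescaling to TPM split the rows with an unadjusted p under 0.05 into 395 higher and 191 lower, against 302 and 306. That scaling divides each library by its summed FPKM. The sums were 311846 and 320581 in KO 1 and KO 2, and 336530 and 341145 in WT 1 and WT 2. The median log2 fold change of all rows tested went from 8.11e-05 to 0.081 with it. Beyond this shift, the cause of the changes in these counts was not tested. Deviations of libraries with the same number correlated at 0.29 across rows. With 2 pairs this does not establish pairing, and the block ended or made no call among members.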
